A study of Mus musculus with 10 samples.

Results

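Nlrc5 and 9 genes of MHC class I antigen presentation were followed in bulk RNA-seq of bone marrow hematopoietic stem and progenitor cells, the marrow cells that renew the blood. The genes were taken by symbol from the 10 count tables: Nlrc5, B2m, H2-K1, H2-D1, Tap1, Tap2, Tapbp, Psmb8, Psmb9 and Psmb10. They are 10 of the 55573 genes in the tables, and all 10 passed the filter on low counts. A count in some library was seen for 26950 genes. Both groups were C57BL/6 animals aged 16 weeks, whose marrow was taken 6 weeks after total body radiation with 500 cGy, so no unirradiated cells were compared. Subcutaneous saline was given for 5 libraries (Saline) and subcutaneous epidermal growth factor for the other 5 (EGF). The question is which transcripts of irradiated marrow cells differ with EGF. The set was selected on the CPM of Nlrc5 in this same contrast, which had been found higher in every EGF library. The EGF to saline differences of the 10 genes are therefore given as a description. Where the test over all genes is reported for them, nothing is read from it.

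MHC class I molecules show peptides from inside the cell to CD8 T cells. A heavy chain pairs with beta-2 microglobulin, the immunoproteasome cuts proteins into peptides, and the TAP transporter with its partner tapasin brings the peptides into the endoplasmic reticulum and onto the heavy chain. NLRC5 is a member of the NLR family that enters the nucleus and activates these genes together with RFX, CREB-type and NF-Y factors bound to neighbouring boxes of their promoters, and interferon raises both NLRC5 and the genes it acts on.

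The promoters of the class I chains carry the boxes read by that complex, and their letters are shown because the question below is which of these genes followed Nlrc5. In the 250 bases before the RefSeq start site (GRCm38.p6), B2m, H2-K1 and H2-D1 each held TGAC, the core of the X2 box, and ATTGG, the Y box on its reverse strand, separated by 21 bases. The letters, chosen after these promoters had been read, were searched on both strands with 20 or 21 bases in between. In each line the capitals mark these boxes, 5′ to 3′.
B2m, chr2:122147609-122147638, plus strand: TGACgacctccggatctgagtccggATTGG
H2-K1, chr17:34000359-34000388, minus strand: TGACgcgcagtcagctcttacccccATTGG
H2-D1, chr17:35262993-35263022, plus strand: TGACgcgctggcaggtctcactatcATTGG
H2-Q4, chr17:35379513-35379542, plus strand: TGACttactggcagttctcacccccATTGG
H2-Q6, chr17:35424747-35424775, plus strand: TGACctgtaacagttctcacccctATTGG
H2-Q7, chr17:35439091-35439119, plus strand: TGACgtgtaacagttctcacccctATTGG
H2-M3, chr17:37270188-37270217, plus strand: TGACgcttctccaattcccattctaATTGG

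The spaced pair was present in 121 of 32851 promoter windows of the RefSeq table, 0.368%. Of the members, 8 had a window there, and 3 of these 8 held the pair. Of a list of 16 other class I genes, 12 had a window and 4 held it: H2-Q4, H2-Q6, H2-Q7 and H2-M3, shown above with the members. In H2-Q6 and H2-Q7 the boxes were 20 bases apart. The windows of Tap1, Tapbp, Psmb8, Psmb9 and Psmb10 did not hold these letters at this distance, which says nothing on the binding of a factor there.

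The promoters of H2-K1 and H2-D1 are shown whole, since they hold all 4 motifs searched, and that of Tap1 because it is shared with Psmb9. Capitals mark the X2 letters TGACG, the Y box ATTGG, a kB site (the first run of capitals in H2-K1 and in H2-D1) and the interferon-type element GAANNGAAA, each on either strand.
H2-K1, chr17:34000334-34000583, minus strand: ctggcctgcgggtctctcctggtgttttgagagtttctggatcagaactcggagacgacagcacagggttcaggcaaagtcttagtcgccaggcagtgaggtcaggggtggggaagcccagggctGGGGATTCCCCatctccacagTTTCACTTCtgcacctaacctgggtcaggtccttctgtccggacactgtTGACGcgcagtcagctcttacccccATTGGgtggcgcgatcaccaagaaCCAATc
H2-D1, chr17:35262844-35263093, plus strand: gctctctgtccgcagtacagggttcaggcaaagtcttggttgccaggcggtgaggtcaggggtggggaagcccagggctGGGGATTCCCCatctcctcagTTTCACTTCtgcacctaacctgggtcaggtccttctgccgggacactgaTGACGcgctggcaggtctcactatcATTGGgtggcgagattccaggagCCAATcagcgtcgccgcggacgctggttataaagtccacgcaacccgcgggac
Tap1, chr17:34187306-34187555, plus strand: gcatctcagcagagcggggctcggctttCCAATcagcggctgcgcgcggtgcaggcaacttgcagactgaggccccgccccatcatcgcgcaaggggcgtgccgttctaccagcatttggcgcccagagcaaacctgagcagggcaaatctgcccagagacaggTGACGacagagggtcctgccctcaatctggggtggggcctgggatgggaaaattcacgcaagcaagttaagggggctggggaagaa

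Among all 32851 windows, TGACG was found in 17.8%, ATTGG in 33.8%, the kB site in 0.0304% and GAANNGAAA in 6.31%. Of the 8 members with a window, 5 held TGACG and 6 held ATTGG, and H2-K1 and H2-D1 held the other motifs. The Tap1 and Psmb9 windows face opposite ways and have 225 bases in common. No motif overlapped another in the 3 sequences shown.

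The members lie in 3 places of GRCm38. On chromosome 17, in the MHC, are H2-K1 (33996017 to 34000347), Tapbp (33915899 to 33929292), Psmb9 (34181987 to 34187764), Tap1 (34187553 to 34197225), Psmb8 (34197721 to 34201454), Tap2 (34203527 to 34216321) and H2-D1 (35262730 to 35267499). Nlrc5 (94434356 to 94527272) and Psmb10 (105935735 to 105938444) are on chromosome 8, and B2m (122147686 to 122153083) is on chromosome 2. Some counts are uncertain, because the strand setting of the counting is not given in the sources used here. Exons of genes on the other strand cover 24.9% of the exonic bases of Tapbp, 18.5% of Tap2, 14.7% of Psmb8, 5.79% of Psmb9, 3.87% of Tap1 and 0.918% of Nlrc5. Of all windows of 50 bases in the longest coding transcript, 14.3% in H2-D1 and 8.79% in H2-K1 occur unchanged in transcripts of other genes, mostly of the class I family, against 0 in Nlrc5, B2m and the immunoproteasome genes.

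Total counts were 6805106 to 8370820 per library. The number of genes with a count was 18734 to 20046 in 9 libraries and 12731 in EGF replicate 5, which stands apart from the rest. The stem and progenitor marker list, with Kit and Cd34, was detected in all libraries (summed level 2535 to 2819 CPM with saline and 2801 to 3521 CPM with EGF; CPM are counts relative to the library total, TMM-scaled). Neutrophil and granule genes, with Elane, Mpo and S100a8, summed to 1563 to 5501 CPM with saline and 1683 to 2709 CPM with EGF. Of these 8 genes 4 had a log2 fold change (EGF over saline) above 0, with a median of -0.22. Without EGF replicate 5 it was 0 of 8, with a median of -1.43. After adjustment edgeR called 0 of them with all libraries. Plasma cell markers reached 684 to 1473 CPM with saline and 167 to 919 CPM with EGF. T and NK cell markers summed to 47.2 to 66.3 CPM with saline and 11.1 to 64.1 CPM with EGF. For B cell markers the sums were 19.8 to 28.9 and 13.3 to 38.8 CPM, and for dendritic cell markers 147 to 178 and 156 to 180 CPM. Stromal and endothelial markers had 184 to 823 and 173 to 671 CPM, and monocyte and macrophage markers 50.1 to 144 and 44 to 72 CPM. Megakaryocyte markers had 142 to 272 and 141 to 275 CPM, and erythroid markers 36.8 to 70.6 and 19.3 to 91.4 CPM. In the stromal and monocyte lists 0 of the 6 and 0 of the 4 genes tested had a log2 fold change above 0. The part of these cells in the members' values was not tested. In bulk RNA a change in the share of cells and a change in RNA per cell cannot be told apart. Nothing in the labels ties a library to its own mouse, and the p-values rest on spread between libraries that may be technical.

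Nlrc5, the transactivator, was higher with EGF in every library. It measured 125, 102, 111, 96.9 and 99.4 CPM in Saline replicates 1 to 5 and 151, 181, 150, 131 and 164 CPM in EGF replicates 1 to 5. The lowest EGF library lay above the highest saline library. The mean was 155 ± 18.7 CPM (SD, n = 5) in the EGF group against 107 ± 11.4 CPM (SD, n = 5) in the saline group, a 1.45-fold difference (log2 fold change 0.54, SE 0.10). With any 1 library left out the log2 fold change was 0.48 to 0.60. This pattern chose the gene, and 1.62% of the 12874 genes tested had their EGF libraries all above saline, and 1.65% all below. None of the other 9 members had groups that did not overlap.

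**Figure D1:**
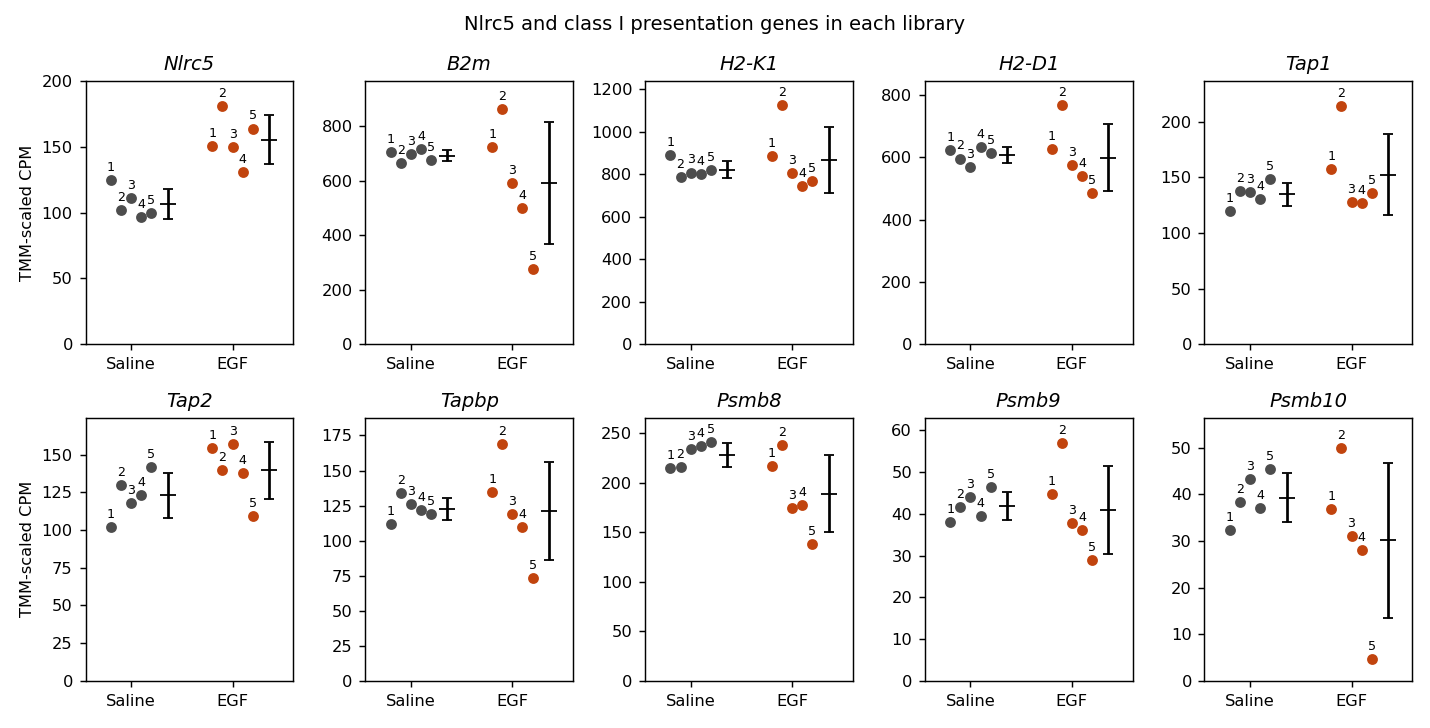
TMM-scaled CPM (y axis, from 0) of the 10 members in each library, with saline in grey and EGF in red; numbers are replicates, and the bar beside each group is the mean ± SD (n = 5). Nlrc5 separates the groups, while in the other panels the EGF libraries spread widely around the saline libraries, from EGF replicate 2 at the top to EGF replicate 4 or 5 at the bottom in most of them.

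None of the 3 class I chains had all EGF libraries above saline, as Nlrc5 did. H2-K1, a classical heavy chain, measured 891, 789, 808, 802 and 818 CPM with saline and 885, 1126, 804, 746 and 770 CPM with EGF. EGF replicate 2 was above all saline libraries, EGF replicates 4 and 5 were below them, and EGF replicates 1 and 3 lay within their range. The log2 fold change was 0.08 (SE 0.11), and it was -0.04 without EGF replicate 2. H2-D1, the other classical heavy chain expressed in this strain, measured 623, 596, 569, 634 and 614 CPM with saline and 626, 768, 575, 541 and 485 CPM with EGF. The same library was the highest and the same 2 lay below saline, and the log2 fold change was -0.02 (SE 0.12), or 0.05 without EGF replicate 5.

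B2m, the light chain shared by class I molecules, had the widest spread of the chains. Its level was 706, 666, 698, 715 and 676 CPM with saline and 723, 865, 591, 499 and 275 CPM with EGF. The saline libraries lay close together, whereas EGF replicates 1 and 2 were above them and EGF replicates 3, 4 and 5 below. The log2 fold change was -0.23 (SE 0.24) with all libraries and -0.05 (SE 0.12) without EGF replicate 5.

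Of the peptide loading genes, the 2 transporter subunits had log2 fold changes above 0. Tap1 measured 120, 138, 137, 130 and 148 CPM with saline and 157, 214, 128, 127 and 136 CPM with EGF. EGF replicates 1 and 2 were above all saline libraries and the other 3 within the saline range, and the log2 fold change of 0.18 (SE 0.14) fell to 0.03 without EGF replicate 2. Tap2 measured 102, 130, 118, 123 and 142 CPM with saline and 154, 140, 157, 138 and 109 CPM with EGF. Here EGF replicates 1 and 3 were above saline, and EGF replicate 2 was within the saline range, unlike in Tap1. The log2 fold change was 0.19 (SE 0.12), from 0.13 to 0.26 with any 1 library left out.

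Tapbp, which encodes tapasin, the bridge between the transporter and the heavy chain, measured 112, 134, 126, 122 and 119 CPM with saline and 135, 169, 119, 110 and 73.7 CPM with EGF. EGF replicates 1 and 2 were above saline and EGF replicates 4 and 5 below. The log2 fold change was -0.02 (SE 0.18), and it was 0.12 without EGF replicate 5.

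All 3 immunoproteasome subunits, which replace the catalytic subunits of the standard proteasome, had log2 fold changes below 0. Psmb8 measured 215, 216, 234, 237 and 241 CPM with saline and 217, 238, 175, 178 and 138 CPM with EGF. EGF replicates 3, 4 and 5 were below all saline libraries and none was above, with a log2 fold change of -0.27 (SE 0.13), or -0.18 (SE 0.09) without EGF replicate 5. Psmb9 measured 38.1, 41.6, 44.0, 39.4 and 46.3 CPM with saline and 44.8, 56.9, 37.8, 36.2 and 28.9 CPM with EGF. The same 3 EGF libraries were below saline and EGF replicate 2 above, and the log2 fold change of -0.03 (SE 0.17) became 0.07 without EGF replicate 5.

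Psmb10 measured 32.4, 38.4, 43.3, 37.1 and 45.5 CPM with saline and 36.9, 50, 31.1, 28.1 and 4.62 CPM with EGF. EGF replicate 5 had 33 counts, against 218 to 388 in the other 9 libraries. The log2 fold change was -0.38 (SE 0.43), and -0.11 (SE 0.15) without that library.

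**Figure D2:**
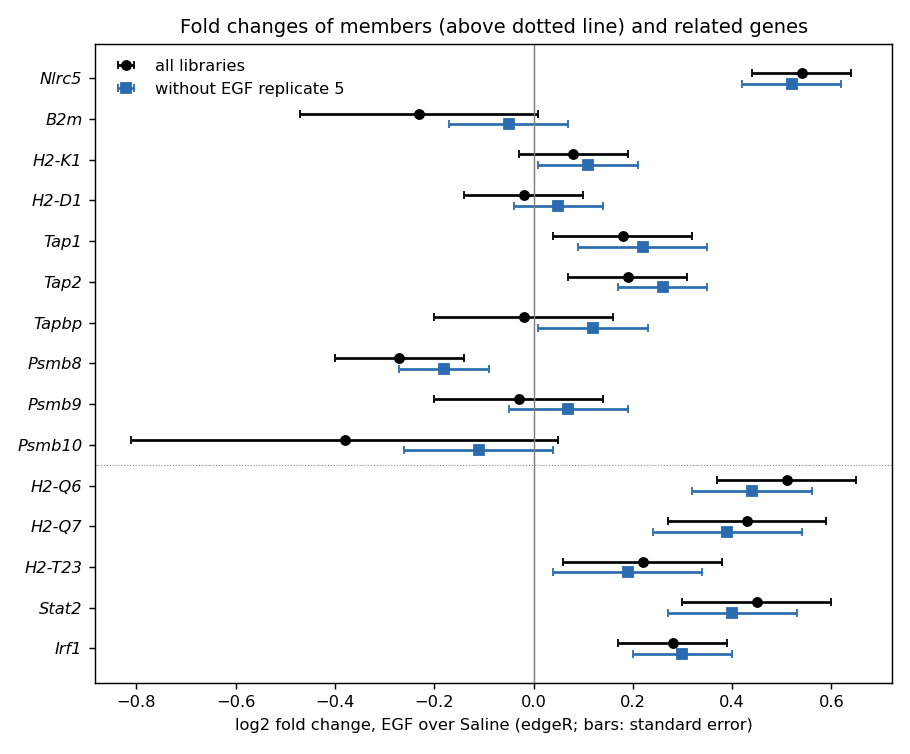
Log2 fold change of EGF over saline (x axis) with its standard error from edgeR, for all libraries (black circles) and without EGF replicate 5 (blue squares), members above the dotted line and related genes below it. Nlrc5 sits at 0.54, and the other members lie between -0.38 and 0.19.

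With edgeR (quasi-likelihood, p adjusted by Benjamini-Hochberg over 12874 genes) 0 of the 10 members passed a threshold of 0.05, where 0.00777% of all genes did. Without EGF replicate 5 it was again 0, beside 0.0611% of all genes. At an unadjusted p under 0.05 there was 1 member, Nlrc5, against 8.87% of all genes in either direction and 6.14% higher. DESeq2 called 1 member higher, again Nlrc5 (0.432% of the genes it tested were called higher and 0.672% in either direction), and limma-voom called 0. The contrast was used in choosing the set, so nothing is read from these counts. The median log2 fold change of the 10 members was -0.02, and of all genes -0.01; 4 of 10 members and 48.5% of all genes were above 0. Without EGF replicate 5 the members' median was 0.09, with 7 of 10 above 0, beside a median of -0.0002 for all genes.

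EGF replicate 2 was the highest of the 10 libraries for 8 of 10 members, with Tap2 and Psmb8 as the exceptions. Its level over the mean of the other EGF libraries was 1.22-fold for Nlrc5, 1.56-fold for Tap1, 1.40-fold for H2-K1 and 1.99-fold for Psmb10. It also had the highest sum of a list of 18 interferon-stimulated genes, 854 CPM, where the saline libraries had 416 to 480 CPM and the other EGF libraries 443 to 704 CPM. The part of this in the members' values was not tested. The share of all genes that were highest in EGF replicate 2 is not given here.

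EGF replicate 5 was the lowest of the 10 libraries for 6 of 10 members: B2m, H2-D1, Tapbp and the 3 immunoproteasome genes. The share of all genes that were lowest in this library is not given here, so nothing is read from this count. In that library the level relative to saline moved with gene length. The median log2 difference from the saline mean was -1.13 over 754 genes with up to 1000 exonic bases, -0.74 over 1378 genes of 1000 to 2000 bases, -0.48 over 3854 genes of 2000 to 4000, -0.14 over 4719 genes of 4000 to 8000, and 0.14 over 2166 longer genes. In the same library B2m, with 860 exonic bases, stood at -1.33, Psmb10, with 1705, at -2.95, Psmb8, with 3381, at -0.72, and Tap1, with 5476, at 0.02. Nlrc5, the longest member with 8493 exonic bases, stood at 0.62. In the other 4 EGF libraries the median for genes of up to 1000 bases was -0.20 to -0.01 and that for genes over 8000 bases 0.02 to 0.12. Nlrc5 stood at 0.50, 0.76, 0.49 and 0.29 in EGF replicates 1 to 4. These are medians with no spread of the classes, and the part of gene length in the members' differences was not tested.

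**Figure D3:**
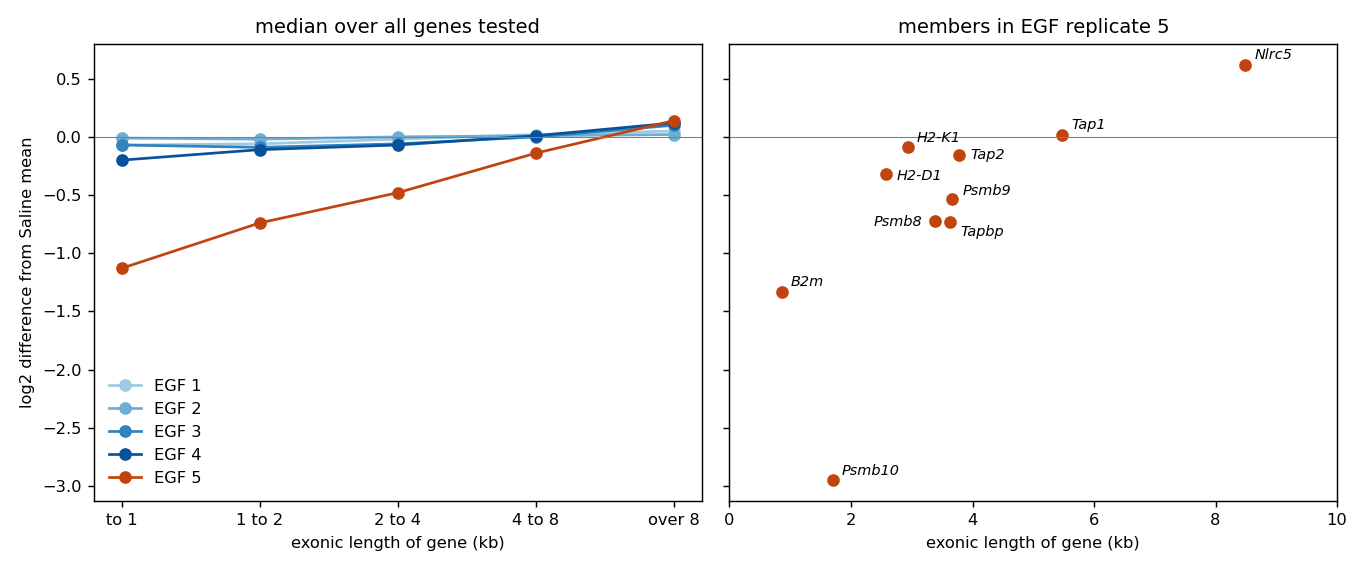
Left, median log2 difference of each EGF library from the saline mean (y axis) over all genes tested, by class of exonic length in kb (x axis); right, the 10 members in EGF replicate 5 by their exonic length. EGF replicate 5 falls to -1.13 for the shortest class, and among the members B2m and Psmb10 are lowest there while Nlrc5 is above 0.

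Per length, the class I chains were the most abundant members and the transactivator was among the least. With saline, B2m stood at 805 ± 23.7 CPM per kb of exonic sequence, H2-K1 at 280 ± 13.7 and H2-D1 at 235 ± 9.84 (SD, n = 5). Psmb8 followed at 67.6 ± 3.62, Tapbp at 33.8 ± 2.32, Tap2 at 32.5 ± 3.92, Tap1 at 24.5 ± 1.91 and Psmb10 at 23.1 ± 3.05 CPM per kb. Nlrc5 was at 12.6 ± 1.34 and Psmb9 at 11.4 ± 0.917 CPM per kb. The ranges of neighbours in this order overlapped from Tapbp to Tap2, Tap2 to Tap1, Tap1 to Psmb10 and Nlrc5 to Psmb9, and were separate elsewhere. With EGF, Nlrc5 at 18.3 ± 2.20 CPM per kb came just ahead of Psmb10 at 17.7 ± 9.70, with overlapping ranges. Exonic length counts all annotated exons of a gene, retained introns included, so levels of genes with many isoforms such as Psmb9 may be set too low.

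Each immunoproteasome gene was also set against its constitutive partner as the log2 ratio of counts per kb within a library, which does not depend on library size. Psmb8 over Psmb5 was 1.76 ± 0.19 with saline and 1.62 ± 0.68 with EGF (SD, n = 5), and Psmb10 over Psmb7 was 0.73 ± 0.21 and 0.13 ± 1.42. Psmb9 over Psmb6 was -1.74 ± 0.09 with saline and -1.79 ± 0.91 with EGF. The wide EGF spread came from EGF replicate 5, with 0.46, -2.39 and -3.40 for these 3 ratios in that order. Without it the EGF means were 1.92 ± 0.21, 0.76 ± 0.18 and -1.38 ± 0.16 (SD, n = 4). For Psmb9 over Psmb6 the 4 remaining EGF libraries ran from -1.60 to -1.21 and the saline libraries from -1.81 to -1.59, so they met at the edge. In these 4 libraries Psmb6 was at 42.8 to 72.9 CPM against 66.8 to 78.8 CPM with saline, and in EGF replicate 5 it was at 156 CPM.

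**Figure D4:**
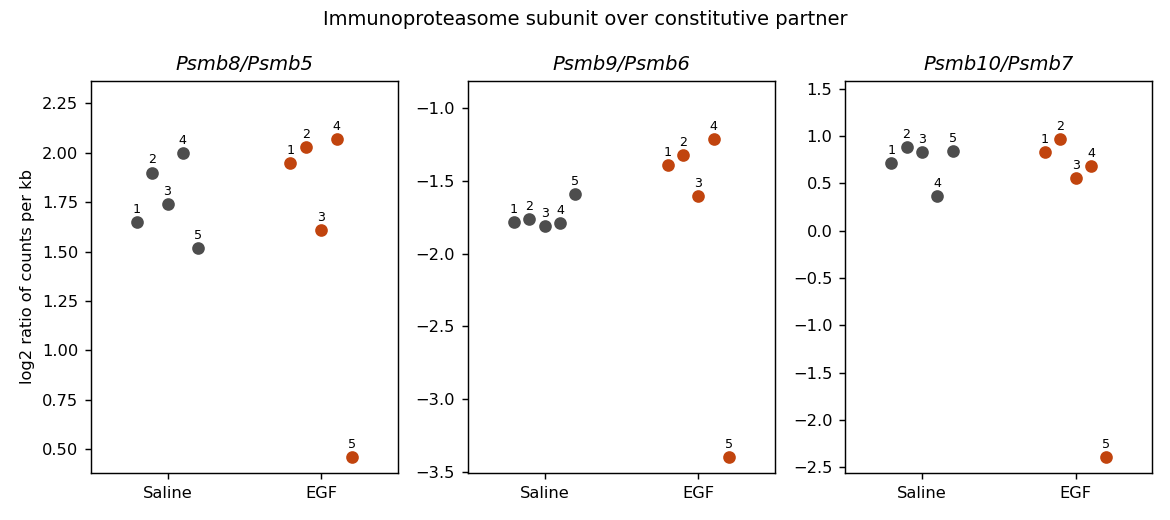
Log2 ratio of counts per kb (y axis, a separate scale in each panel) of each immunoproteasome subunit over its constitutive partner in every library; numbers are replicates. EGF replicate 5 lies far below all other libraries in each panel, at 0.46, -3.40 and -2.39.

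To see which genes varied with Nlrc5 apart from the EGF difference, the mean of each group was subtracted from log2(CPM + 0.5), and Pearson's r with Nlrc5 was taken over the 10 libraries for 8903 genes with a mean of at least 10 CPM. These values are a description: all genes share the same libraries and their depth. The 2 genes closest to Nlrc5 were class I genes that are not members, H2-Q7 (r = 0.94) and H2-Q6 (r = 0.92), both of the Qa-2 group of nonclassical heavy chains. Next came F2r, the thrombin receptor PAR1 (r = 0.92), Fam53c (r = 0.89) and Itga6, integrin alpha-6 (r = 0.89). With any 1 library left out r was 0.91 to 0.98 for H2-Q7 and 0.89 to 0.95 for H2-Q6. The order was not fixed: without EGF replicate 5, H2-Q6 had rank 4 and H2-Q7 rank 7. By Spearman's rank correlation F2r (0.98) stood above H2-Q7 (0.94) and H2-Q6 (0.90), and Fam53c had 0.94. The counts of H2-Q6 and H2-Q7 are uncertain singly, since 32.0% and 34.9% of their 50-base windows occur in other genes, 13.95% of those of H2-Q6 in H2-Q7 and 19.27% of those of H2-Q7 in H2-Q6.

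Among the members, H2-K1 was closest to Nlrc5, with r = 0.71 and rank 80 of the other genes, and r = 0.55 to 0.85 with any 1 library left out. Tap1 had r = 0.41, H2-D1 0.36, Psmb9 0.23, B2m 0.15, Tapbp 0.11, Psmb8 0.10 and Psmb10 -0.09. Tap2 had r = -0.51, rank 8625, and stayed below 0 with each library left out. The median over the 9 members was 0.15, against -0.01 over all genes. It was 0.52 without EGF replicate 5 and -0.36 without EGF replicate 2, so it rests on these 2 libraries.

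**Figure D5:**
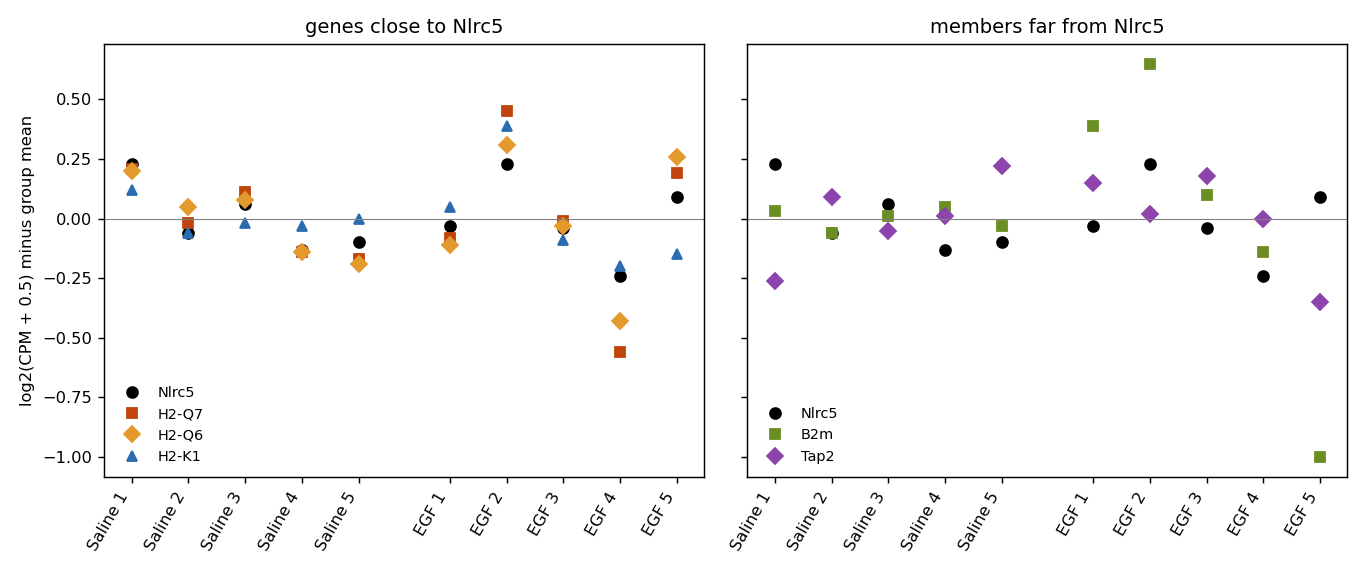
Log2(CPM + 0.5) minus the group mean (y axis) in each library (x axis) for Nlrc5 with H2-Q7, H2-Q6 and H2-K1 on the left and with B2m and Tap2 on the right. H2-Q7 and H2-Q6 lie above their group mean in Saline replicate 1, EGF replicate 2 and EGF replicate 5 as Nlrc5 does, while B2m and Tap2 are lowest in EGF replicate 5.

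The other genes of the pathway gave no call. Of 104 genes in 8 lists (class I genes, peptide loading, proteasome partners, interferon regulators, promoter factors, NLR family, class II and interferon-stimulated genes), 95 were tested. With edgeR and adjustment over all genes 0 passed, and DESeq2 and limma-voom also called 0. Unadjusted edgeR p-values were under 0.05 for 21 genes, 19 of them higher, or 22.1% of the 95, where 8.87% of all genes tested were under it. Of the 21, 8 were among the 18 interferon-stimulated genes, while the lists of proteasome partners and of promoter factors had 0. The lists were chosen with earlier results of these data known, so no enrichment is read from this share.

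In the list of class I genes that are not members, 11 of 16 were tested, 9 of these lay above 0, and the median log2 fold change was 0.43 (0.22 without EGF replicate 5). H2-Q6 measured 163, 146, 150, 129 and 124 CPM with saline and 185, 246, 194, 147 and 238 CPM with EGF. All EGF libraries but EGF replicate 4 were above saline, and the log2 fold change was 0.51 (SE 0.14, edgeR adjusted p = 0.552). H2-Q7 measured 129, 110, 120, 101 and 98.7 CPM with saline and 139, 201, 146, 99.7 and 168 CPM with EGF, a log2 fold change of 0.43 (SE 0.16, edgeR adjusted p = 0.552). H2-T23, which encodes Qa-1, had 0.22 (SE 0.16). Its promoter window did not hold the spaced pair, and its r with Nlrc5 was 0.83. H2-Q4, whose promoter letters are shown above, had 0.31 (SE 0.13), or 0.38 without EGF replicate 5. Its r with Nlrc5 was 0.69, and 0.51 to 0.96 with any 1 library left out. H2-M3, which presents formylated peptides, had 0.56 (SE 0.35), but 0.04 without EGF replicate 5, where it was at 57.2 CPM. The promoter letters of H2-M3 are shown above too, but its r with Nlrc5 was 0.27. Fcgrt, the neonatal Fc receptor chain, had -0.95 (SE 0.42, not called by edgeR after adjustment), or -0.75 without EGF replicate 5. H2-Q4 and Fcgrt lie outside the rule for named genes and were chosen after their values were seen.

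The regulators that lie upstream were described next. Among 14 interferon regulators the median log2 fold change was 0.12, and 9 lay above 0. Stat2, a signal transducer of type I interferons, had 0.45 (SE 0.15), and Irf1, an interferon-induced activator of class I genes, 0.28 (SE 0.11). Irf9, the DNA-binding subunit of the complex that Stat2 joins, had 0.61 (SE 0.27) but 0.24 without EGF replicate 5. The receptor gene Ifngr1 had -0.08 (SE 0.10), the kinase gene Jak2 0.16 (SE 0.14) and Irf2 0.19 (SE 0.12).

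A list of 14 genes of promoter factors held RFX, NF-Y and CREB-type genes, and also Ep300, Crebbp, Kat2b, Ezh2 and Ciita. Of the 14, 7 lay above 0, with a median log2 fold change of 0.01. Without EGF replicate 5, 10 of 14 lay above 0 and the median was 0.04. The RFX subunit gene Rfx5 had 0.26 (SE 0.13), Rfxank 0.18 (SE 0.24), Rfxap -0.03 (SE 0.20) and the NF-Y subunit gene Nfya -0.04 (SE 0.09). Ciita, the class II counterpart of Nlrc5, was low, at 4.88 ± 2.28 CPM with saline and 4.57 ± 4.46 CPM with EGF (SD, n = 5 each). Among 13 NLR genes tested the median was 0.24, with Nlrp3 at 1.06 (SE 0.45), Nlrc3 at 0.33 (SE 0.17) and Nlrx1 at -0.38 (SE 0.60). Of 8 class II genes 5 were above 0, with a median of 0.15, and without EGF replicate 5 these were 7 and 0.37. Cd74, the invariant chain, was at -0.26 (SE 0.48), but 0.02 without that library, and H2-Ob was at 0.68 (SE 0.25).

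Peptide loading helpers and proteasome partners were followed in the same way. Of 10 loading and trimming genes 5 were above 0, with a median log2 fold change of 0.01, and without EGF replicate 5 these were 4 and -0.09. The tapasin-related Tapbpl had 0.69 (SE 0.30) and 0.35 without EGF replicate 5. Calr, the calreticulin gene, had 0.09 (SE 0.23) and -0.20 without that library, Canx, the calnexin gene, 0.10 (SE 0.16) and -0.08, and Psme1, of the PA28 activator, 0.11 (SE 0.13) and -0.03. Pdia3, an oxidoreductase of the loading complex, had -0.18 (SE 0.10), the trimming peptidase gene Erap1 -0.17 (SE 0.11) and the translocon gene Sec61a1 -0.30 (SE 0.10). Of 8 proteasome partners 2 were above 0, with a median of -0.13. Psme2, the other PA28 subunit gene, had -0.13 (SE 0.15). Pomp, an assembly chaperone of the proteasome, had -0.17 (SE 0.09), with its EGF libraries all below saline. Psmb5 had -0.11 (SE 0.24), Psmb6 0.12 (SE 0.29) and Psmb7 -0.12 (SE 0.14), and that of Psmb6 was -0.29 without EGF replicate 5. By edgeR the adjusted p was 0.552 or higher for all genes named here.

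Among 18 interferon-stimulated genes the median log2 fold change was 0.63, and 17 lay above 0 (18 and a median of 0.62 without EGF replicate 5). Ifit1 measured 6.18 to 8.63 CPM with saline and 11.5, 26.9, 8.27, 7.55 and 29.4 CPM with EGF, and Irf7 8.12 to 20.6 CPM with saline and 15.7, 42.2, 16.8, 16.6 and 27.7 CPM with EGF. EGF replicates 2 and 5 were the highest for both genes, the 2 libraries in which Nlrc5 was also highest. With the group means subtracted, r with Nlrc5 was 0.77 for Ifit1 but 0.21 for Irf7. For Xaf1 and Mx1, the 2 genes of this list with the smallest edgeR p, it was 0.36 and 0.23.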

How the data were processed

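Per the labels' protocols, a Clontech kit, rRNA depletion and PCR were used for the libraries; bcl2fastq 2.17, STAR, GRCm38 and mm10 are named in the submitters' processing notes. The sources used here do not give the counting tool, strand setting, annotation release or EGF dose. The deposited values are whole-number counts per gene, not normalized, 1 table per library.

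Genes were placed and measured with GENCODE release M21 (GRCm38), which held 55480 of 55573 identifiers; 27 symbols that differed between tables were taken from it. No pair of libraries was a repeat (chi-square per degree of freedom at least 5.66). The main test was edgeR 4.0.16 in R 4.3.3: TMM scaling, filterByExpr with a minimum count of 10, and the quasi-likelihood F test over 10 libraries, with Benjamini-Hochberg adjustment at 0.05. Standard errors come from the F statistic. The test was checked on simulated counts. Alternatives were other scalings, DESeq2 1.42.0, limma-voom 3.58.1, other filters, a robust fit, the replicate number as a block, and each library left out. Depth statements cover counting error only.

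The members and lists were chosen with earlier results of these data known. The genes named were all members, a fixed set of pathway genes, the 2 of each list with the smallest p, any that passed, and the 5 most like Nlrc5; not all are reported here.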

Additional observations from a re-analysis of the deposited data

Results flagged for a closer look

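Single libraries far from the rest of their group were sought among the 10 members' CPM and the 3 log2 ratios, 26 groups of 5 in all, of which chance alone would set apart about 1 in 20; 5 were found. EGF replicate 5 was far below the other EGF libraries in the log2 ratio of Psmb8 to Psmb5 (0.46), of Psmb9 to Psmb6 (-3.40) and of Psmb10 to Psmb7 (-2.39). Saline replicate 5 was above the other saline libraries in the ratio of Psmb9 to Psmb6 (-1.59). Saline replicate 1 was above the other saline libraries for H2-K1 (891 CPM); it was also the highest saline library for Nlrc5, at 125 CPM.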

How the results depend on the processing

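Over 20 alternatives the log2 fold change of Nlrc5 stayed between 0.48 and 0.62, the highest without EGF replicates 3 and 4 together, an alternative added after the data were seen. The count of genes called, 1 in the main test, was 56 by DESeq2, 0 with library size as the scaling, 0 with the replicate block, 0 without EGF replicates 3 and 4 together, and 0 to 8 with any 1 library left out (8 without EGF replicate 5). Members called were 0 except by DESeq2, which called 1, and pathway genes called were 0 throughout. The median log2 fold change of the members ranged from -0.15 without EGF replicate 2 to 0.09 without EGF replicate 5, and was -0.05 with the replicate block. Replicate numbers did not pair the samples: deviations of same-numbered libraries correlated at -0.078 to 0.019, and 0 of 5 EGF libraries were closest to their own number. The median r of the 9 members with Nlrc5 ranged from -0.36 without EGF replicate 2 to 0.52 without EGF replicate 5; the cause was not tested. The sign of the log2 fold change changed under at least 1 alternative for 4 of 10 members (H2-K1, H2-D1, Tapbp and Psmb9) and for 11 of 40 pathway genes. Without EGF replicate 5 the difference in the ratio of Psmb8 to Psmb5 went from -0.14 to 0.16, of Psmb9 to Psmb6 from -0.04 to 0.36 and of Psmb10 to Psmb7 from -0.60 to 0.03. Depth limits genes such as Ciita, at about 5 CPM.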
